A study of Homo sapiens with 8 samples.

Results

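Fibroblast growth factor 2 (FGF2), the antisense gene NUDT6, the ligands FGF1 and FGF5, the receptors FGFR1, FGFR2, FGFR3, FGFR4 and FGFRL1, and the adaptor FRS2 are described here in breast cancer cells kept in low or high glucose. These 10 genes were picked by symbol from a table of 21059 genes, and the set was drawn up with the expression difference between the glucose levels already known. Their high against low glucose differences are therefore a description, and no p-value is given for them.

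MDA-MB-157 is an established cell line from an estrogen receptor-negative breast cancer. Cells in T25 flasks were switched to serum-free medium for 48 hours, with glucose at 5 mM in the low glucose group and at 25 mM in the high glucose group, after conditioning in low glucose, and each group holds 4 libraries. RNA sequencing values are CPM, read counts scaled to a common library size and adjusted for library composition by trimmed mean of M values (TMM) factors. The comparison asks how transcripts of these cells respond to a glucose level that models diabetes. Per the study's methods, low glucose served as the control, and the labels name no osmotic control for any of the 8 libraries. Mannitol was added to the control in some experiments of the study, and whether these libraries were among them is not stated. The study reports that its phenotypes did not differ with added mannitol, and shows this for proliferation and migration, not for RNA. A single cell line was used, and the sources used here do not say whether the 4 libraries of a group came from separate experiments, so that all p-values measure only the spread between these libraries.

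FGF2 is a heparin-binding growth factor that lacks a signal peptide and leaves the cell by an unconventional route across the plasma membrane. It binds receptor tyrosine kinases of the FGFR family together with heparan sulfate chains, the kinase phosphorylates the membrane-anchored adaptor FRS2, and FRS2 recruits GRB2, SHP2 and SOS to start the RAS to ERK cascade. ERK output raises feedback inhibitors, among them sprouty and SPRED proteins and the dual specificity phosphatases DUSP4, DUSP5 and DUSP6, and transcription factors of the ETS family such as ETV4 and ETV5. FGFRL1 binds FGF ligands but has no kinase domain. NUDT6 is transcribed from the opposite strand across the 3' end of FGF2 and encodes a NUDIX hydrolase.

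The start regions of the antisense pair are shown because both genes arise from opposite ends of the same locus on chromosome 4, and the gap between the glucose groups was wide for FGF2 and narrow for NUDT6. The bases lie directly upstream of each RefSeq gene start (GRCh38.p14), outside any annotated gene, and run 5' to 3' on the strand of the gene. For FGF2 they are chr4:122826581-122826681 on the plus strand (101 bases), and for NUDT6 chr4:122922969-122923077 on the minus strand (109 bases). Capitals mark GC boxes (GGGCGG or its reverse complement CCGCCC) and an ETS site (CCGGAAGT or its reverse complement ACTTCCGG).
FGF2: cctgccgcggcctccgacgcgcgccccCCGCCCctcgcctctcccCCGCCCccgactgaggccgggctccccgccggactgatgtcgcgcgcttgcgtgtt
NUDT6: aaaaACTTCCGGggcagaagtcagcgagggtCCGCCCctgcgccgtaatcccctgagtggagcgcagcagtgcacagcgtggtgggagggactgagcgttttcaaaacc

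The FGF2 stretch was 80.2% G and C and held 2 GC boxes, and the NUDT6 stretch was 61.5% G and C and held 1 GC box and 1 ETS site. The NUDT6 stretch ends where the AFG2A gene (SPATA5 in the table) starts and runs away from NUDT6, so that it lies between divergent starts. The FGF2 stretch is the part outside the gene of a 250-base window before a further annotated start inside it. On a common scale of 250 bases before a start, that FGF2 window had a G and C content of 75.2%, the 89.9th percentile of 35116 RefSeq windows whose median was 58%. The NUDT6 windows were at 55.6% and 54.4%, the 43.4th and 40.8th percentiles. Of the other members, 1 window each of FGFR2, FGFR3 and FGFR4 was above that of FGF2, at the 94.8th, 99.8th and 96.3rd percentiles. A GC box occurs in 42.6% of those windows and the ETS letters in 3.42%. The E-box CACGTG, present in 6.34% of the windows, the AP-1 letters TGANTCA, in 6.57%, and TATAAA, in 10.7%, have no match in the FGF2 or NUDT6 windows. All motifs were searched on both strands, and a match describes letters only.

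Reads in the table were estimated at 9721648 to 12482546 per library, and 3 reads, used here as the floor, correspond to 0.212 to 0.267 CPM. Library sizes and floors cover counting error only. Of 10 markers of the line and its epithelial or mesenchymal state, ESR1, the estrogen receptor, was at 0 to 0.170 CPM in the 8 libraries, below 3 reads, whereas PGR, the progesterone receptor, was at 4.33 to 5.95 CPM. Of the 10, 2 rose (EPCAM and ZEB1), 5 fell (ERBB2, KRT8, KRT18, VIM and FN1), and ESR1, PGR and CDH1 did not pass. The share that passed, 70%, stood beside 46.8% of all genes and 67.0% in a fit of genes with a mean of at least 1 CPM. No shift of state is read from it. Of 12 markers of other cell types, 7 were in the table, and their summed level was 80.3 to 86.2 CPM in low and 62.5 to 70.1 CPM in high glucose, nearly all of it ACTA2 (smooth muscle actin), while the leukocyte marker PTPRC stayed at or under 0.178 CPM. None of the 7 was at 0 in all libraries; the monocyte marker CD14 was at 0.801 to 1.58 CPM in low and 2.76 to 5.79 CPM in high glucose, and the endothelial markers PECAM1 and VWF went in opposite directions. Their part in the results was not tested. High glucose replicate 1 stood apart: across 11223 genes its deviation from the other replicates went with transcript length at a Spearman correlation of -0.65, against 0.25, 0.34 and 0.47 for replicates 2, 3 and 4 and -0.13 to 0.06 in low glucose. Genes are not independent replicates, and these values are a description. Differences are therefore also given without that library.

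FGF2 (ENSG00000138685.15, GRCh38 chr4:122826682-122898236, plus strand) was the member with the widest gap between the groups. Its level was 38.6, 41.8, 42.6 and 38.6 CPM in the 4 low glucose libraries and 240.4, 260.7, 243.3 and 269.9 CPM in the 4 high glucose libraries. The groups lay far apart, and the lowest high glucose library was more than 5 times the highest low glucose library. The means were 40.4 ± 2.10 and 253.6 ± 14.1 CPM (SD, n = 4 each), a 6.27-fold ratio. On the log2(CPM + 1) scale the difference was 2.62 (SE 0.05), and without high glucose replicate 1 it was 2.64. Among the 11297 genes with a mean of at least 5 CPM, only 3 had a larger difference in the upward direction, so that FGF2 ranked 4. In bulk RNA a larger share of cells making FGF2 and more FGF2 RNA in each cell cannot be told apart.

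FGF1 and FGF5, the other ligands of the set, were close to the floor. FGF1 (ENSG00000113578.18, GRCh38 chr5:142592178-142698070), an FGF that binds all FGF receptors, was at 1.0, 0.497, 1.27 and 1.09 CPM in low glucose and at 0.706, 0.478, 0.247 and 0.178 CPM in high glucose. The groups overlapped through low glucose replicate 2 and high glucose replicate 1. These levels stand for 2 to 15 reads in a library. The FGF1 difference was -0.49 (SE 0.17) on the log2(CPM + 1) scale, -0.59 without high glucose replicate 1, and -1.15 with a pseudocount of 0.1. FGF5 (ENSG00000138675.16, GRCh38 chr4:80266588-80291017), known as a regulator of the hair cycle, was at 0.0834, 0.0828, 0 and 0 CPM in low glucose and at 0.212, 0, 0.247 and 0.356 CPM in high glucose. No library held more than 4 FGF5 reads, and no fold is given. At this depth a difference in FGF5 was not detectable.

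**Figure D1:**
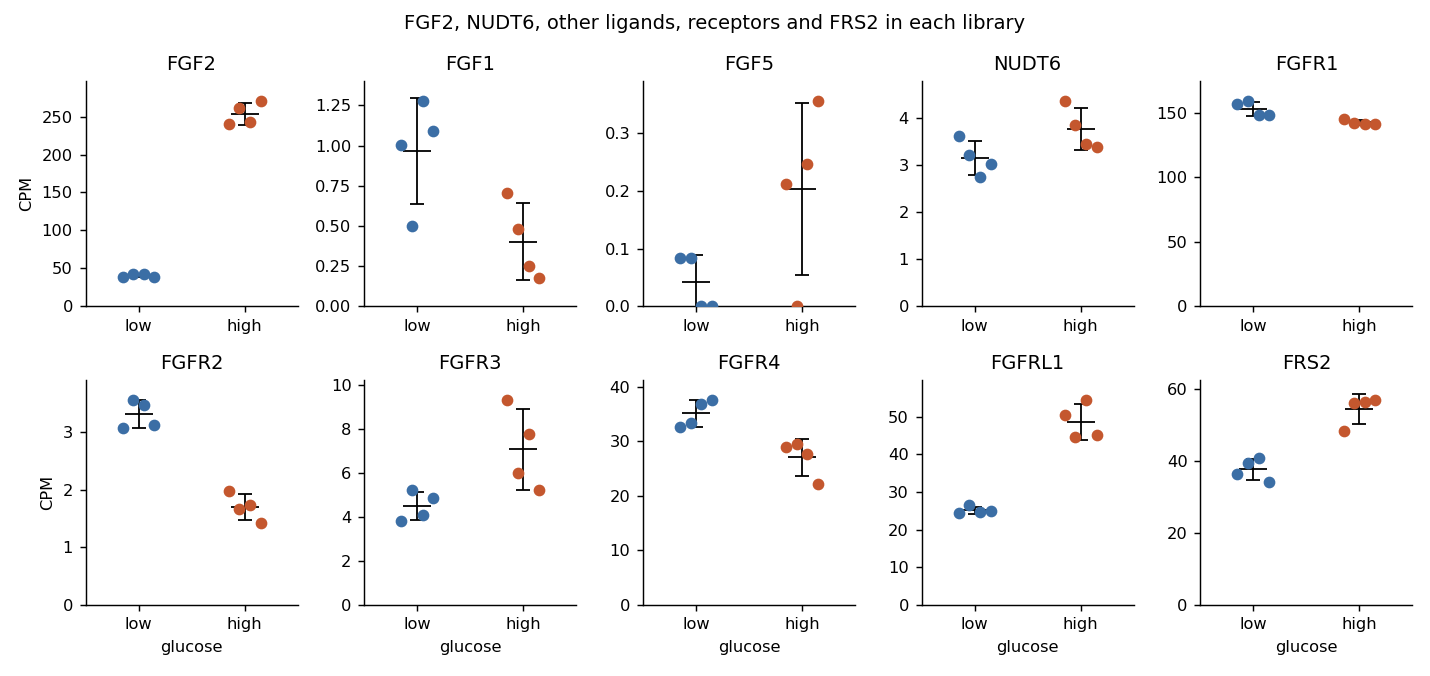
Level of each of the 10 genes in CPM (linear axis from 0) in the 4 low glucose (blue) and 4 high glucose (orange) libraries, in the order of replicates 1 to 4 from left to right, with the mean and SD as black bars. FGF2 lies at 38.6 to 42.6 CPM in low and 240.4 to 269.9 CPM in high glucose, FGFRL1 and FRS2 are also higher without overlap, and FGFR2 and FGFR4 are lower without overlap.

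NUDT6 (ENSG00000170917.13, GRCh38 chr4:122892577-122922968, minus strand) was at 3.62, 3.21, 2.74 and 3.02 CPM in low glucose. In high glucose it was at 4.35, 3.86, 3.45 and 3.38 CPM. The groups overlapped: the highest low glucose library was above the lowest 2 of high glucose. The means were 3.15 ± 0.37 and 3.76 ± 0.45 CPM, a difference of 0.20 (SE 0.10) on the log2 scale and of 0.14 without high glucose replicate 1. The sense and antisense transcripts thus differed in their ratio. For each 100 CPM of FGF2 there were 6.44 to 9.37 CPM of NUDT6 in low glucose and 1.25 to 1.81 CPM in high glucose, with no overlap.

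Part of the NUDT6 level cannot be separated from FGF2. In the GENCODE 44 transcripts, 2 of the 5 NUDT6 exons lie inside the last FGF2 exon and share 704 bases with it, which is 57.4% of the NUDT6 transcript and 10.6% of the FGF2 transcript. The step of 1 read in each column shows how the table treated them. Divided by this step, FGF2 gave a whole number (within 0.05 reads) in 1 of 8 libraries and NUDT6 in 1 of 8, but their sum was whole in 8 of 8. In low glucose replicate 1, for example, FGF2 came to 463.57 and NUDT6 to 43.43 read equivalents, together 507, and in high glucose replicate 2 to 3270.55 and 48.45, together 3319. FGF1, FGF5, FGFR2, FGFR3, FGFR4, FGFRL1 and FRS2, for which the annotation shows no exon shared with another gene, were whole in all 8 libraries. The values of the pair thus divide a joint number of reads by an estimate, and the use of strand in that step is not stated for the cell lines. The NUDT6 difference of 0.613 CPM between the group means equals 0.287% of the FGF2 difference of 213.2 CPM, and how much of the NUDT6 level came from FGF2 molecules was not tested.

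Genes around the pair had log2 differences between -0.95 and 0.32, against 2.62 for FGF2. Of the genes in the table whose annotated start lies within 1 Mb of that of FGF2 (negative distances are upstream), SPATA5, which starts beside NUDT6, was at 7.02 ± 1.17 CPM in low and 9.01 ± 1.49 CPM in high glucose (log2 difference 0.32, adjusted p = 0.108 by limma). BBS12, at -94.0 kb, was at 5.4 ± 0.25 and 4.07 ± 1.06 CPM (adjusted p = 0.0952). IL21-AS1, a long noncoding RNA at -207.7 kb, fell from 1.62 ± 0.54 to 0.360 ± 0.292 CPM, by -0.95 on the log2 scale (adjusted p = 0.00694). SPRY1, a sprouty inhibitor of ERK signalling at 570.1 kb, rose from 10.9 ± 0.65 to 12.8 ± 0.94 CPM, by 0.21 on the log2 scale (adjusted p = 0.0356), but not without high glucose replicate 1 (adjusted p = 0.0678). KIAA1109 differed by -0.45 (adjusted p = 0.0545), and the change of -0.29 passed without that library (adjusted p = 0.0200). BBS7, CETN4P and LINC01091 did not pass, with log2 differences of -0.03, -0.16 and -0.18. These p-values were adjusted over all 21059 genes.

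**Figure D2:**
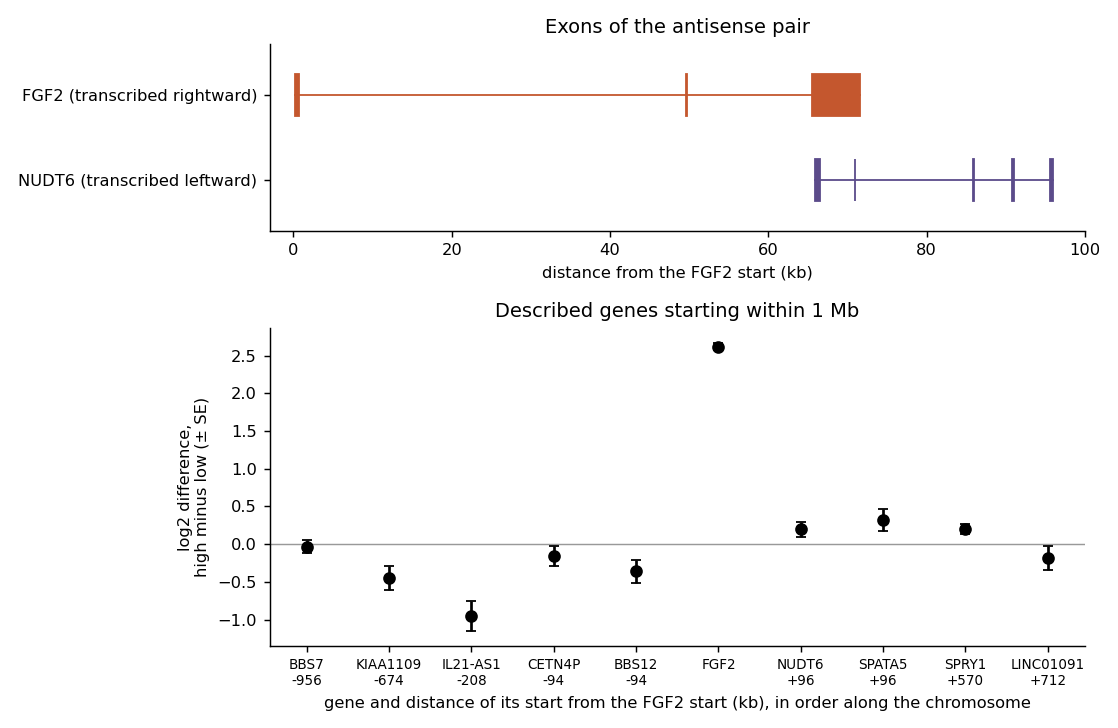
Top, exons (boxes) of the representative FGF2 and NUDT6 transcripts by distance from the FGF2 start in kb; bottom, log2 difference (high minus low glucose, ± SE) of FGF2 and the described genes starting within 1 Mb, in order along the chromosome with their distance in kb. FGF2 is at 2.62, NUDT6 at 0.20, and the other genes lie between -0.95 and 0.32.

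FGFR1, the receptor whose mesenchymal isoforms bind FGF2 with high affinity, was the highest of the receptors. FGFR1 (ENSG00000077782.20, GRCh38 chr8:38411143-38468635) was at 156.6, 158.7, 148.6 and 148.4 CPM in low glucose and at 145.3, 142.1, 141.6 and 141.5 CPM in high glucose. The groups did not overlap, but the gap between them was narrow, and the means of 153.1 ± 5.34 and 142.6 ± 1.82 CPM stood in a ratio of 0.932. The log2 difference was -0.10 (SE 0.03), and -0.11 without high glucose replicate 1. FGFR1 shares 53 bases with an antisense long noncoding RNA.

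FGFR4 and FGFR2 were also lower in high glucose. FGFR4 (ENSG00000160867.15, GRCh38 chr5:177086915-177098144), known for its response to FGF19 with the coreceptor KLB, was at 32.7, 33.4, 36.9 and 37.5 CPM in low and 28.9, 29.5, 27.5 and 22.1 CPM in high glucose. All high glucose libraries were below all low glucose libraries, and the log2 difference was -0.37 (SE 0.10). FGFR2 (ENSG00000066468.22, GRCh38 chr10:121478330-121598458), which epithelial cells splice to a form bound by FGF7 and FGF10, was at 3.08, 3.56, 3.48 and 3.13 CPM in low and 1.98, 1.67, 1.73 and 1.42 CPM in high glucose. The groups did not overlap, the ratio of the means was 0.513, and the log2 difference was -0.68 (SE 0.08). Without high glucose replicate 1 the differences were -0.41 for FGFR4 and -0.73 for FGFR2.

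FGFR3 and FGFRL1 were higher in high glucose. FGFR3 (ENSG00000068078.18, GRCh38 chr4:1793293-1808867), a receptor known for its part in restraining bone growth, was at 3.83, 5.22, 4.08 and 4.88 CPM in low glucose and at 9.32, 5.98, 7.75 and 5.24 CPM in high glucose. The groups were separated only by the gap from 5.22 to 5.24 CPM, and replicate 1 was the highest of the high glucose group. The log2 difference of 0.53 (SE 0.18) was 0.41 without replicate 1. FGFRL1 (ENSG00000127418.15, GRCh38 chr4:1010212-1026898), the receptor without a kinase, was at 24.5, 26.4, 24.6 and 24.9 CPM in low and 50.5, 44.6, 54.4 and 45.1 CPM in high glucose. The groups were far apart relative to their spread, with a 1.94-fold ratio of the means and a log2 difference of 0.92 (SE 0.07), or 0.90 without replicate 1.

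FRS2 (ENSG00000166225.8, GRCh38 chr12:69470388-69579793), the adaptor that links the receptors to RAS, was at 36.4, 39.3, 40.9 and 34.3 CPM in low glucose and at 48.4, 56.3, 56.3 and 57.0 CPM in high glucose. All high glucose libraries were above all low glucose libraries, and replicate 1 was the lowest of its group. The ratio of the means was 1.44, and the log2 difference of 0.52 (SE 0.07) was 0.57 without replicate 1.

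Across the set, the groups did not overlap for 7 of the 10 genes, namely FGF2, FGFR3, FGFRL1 and FRS2 upward and FGFR1, FGFR2 and FGFR4 downward. Over all genes 44.5% did not overlap. In the fit across all genes, 8 of the 10 (all but NUDT6 and FGF5) were under the threshold of 0.05 on the adjusted p, 4 in each direction, where 46.8% of all genes were called, 22.0% higher and 24.8% lower. The members were picked on this contrast, so nothing is read from these counts. The median log2 difference of all genes was -0.01.

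Set against transcript length, FGF2 moved from the middle of the set to its top. At low glucose the order by CPM per kb of the representative transcript was FGFR1 (26.9 ± 0.94), FGFR4 (11.4 ± 0.79), FGFRL1 (7.36 ± 0.26), FGF2 (6.08 ± 0.31), FRS2 (5.58 ± 0.43), NUDT6 (2.57 ± 0.30), FGFR3 (1.05 ± 0.15), FGFR2 (0.717 ± 0.052), FGF1 (0.258 ± 0.089) and FGF5 (0.00782 ± 0.00903). Only FGF2 and FRS2 overlapped among neighbours in that order. At high glucose FGF2 was first (38.1 ± 2.12), followed by FGFR1 (25.0 ± 0.32), FGFRL1 (14.3 ± 1.38), FGFR4 (8.73 ± 1.08), FRS2 (8.05 ± 0.61) and NUDT6 (3.07 ± 0.37), then FGFR3, FGFR2, FGF1 and FGF5. There the neighbours FGFR4 and FRS2 overlapped, as did FGF1 and FGF5. The order rests on the transcript chosen for each gene: with the length of all annotated exons, FGF2 had rank 3 in low glucose and still rank 1 in high glucose, and FGFR1 had rank 3 in high glucose.

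**Figure D3:**
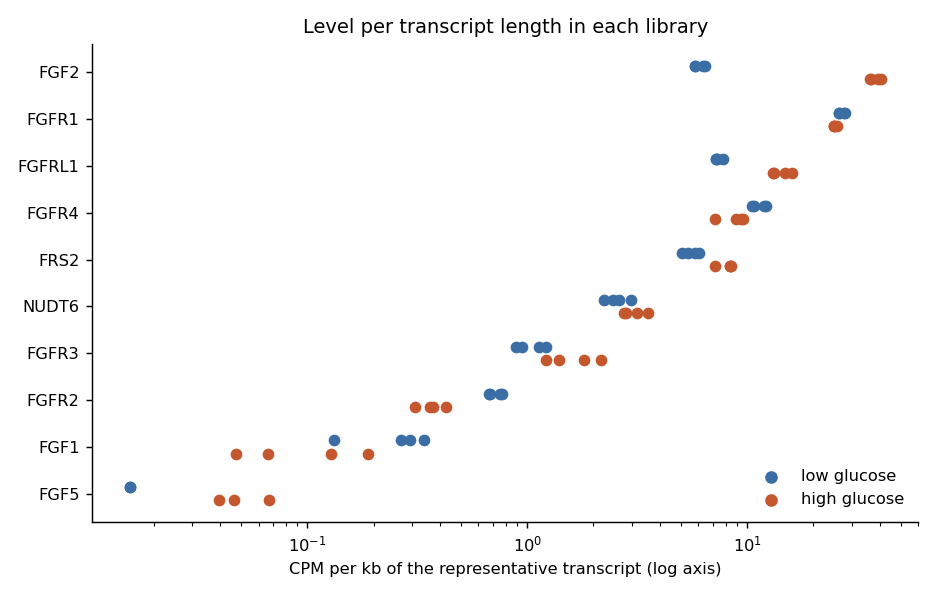
CPM per kb of the representative transcript (log axis) of the 10 genes in each low glucose (blue) and high glucose (orange) library, ordered by the high glucose mean, with values of 0, all of FGF5, not drawn. FGF2 goes from a mean of 6.08 to 38.1 and passes FGFR1, which stays near 25.0 to 26.9.

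The balance of ligand and receptors on this scale differed between the groups. FGF2 divided by FGFR1, both per kb, was 0.211 to 0.246 in low glucose and 1.42 to 1.63 in high glucose. FGF2 made up 73.8 ± 1.64% of the summed per-kb level of the 9 FGF ligands in the table in low glucose and 94.2 ± 1.0% in high glucose. Among the 4 kinase receptors, FGFR1 held 67.2 ± 2.09% of the summed per-kb level in low and 70.1 ± 2.72% in high glucose, and FGFR4 held 28.4 ± 2.06% and 24.3 ± 2.11%. The FGFR1 shares overlapped between the groups, and the FGFR4 shares did not. The summed kinase receptors were at 40.0 ± 0.46 and 35.8 ± 1.64 CPM per kb. FGFRL1 divided by that sum was 0.181 to 0.191 in low glucose and 0.361 to 0.444 in high glucose, with no overlap. The size of these ratios and shares depends on the transcript length used. With the length of all annotated exons, mean FGFR1 was 8.90 CPM per kb in low and 8.29 in high glucose. On that length FGFR4 was at 7.30 and 5.62, nearer to FGFR1, and FGF2 at 5.95 and 37.3.

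Genes with a profile like that of FGF2 over the 8 libraries were found by the Euclidean distance between centred log2(CPM + 1) values, among genes with a mean of at least 5 CPM. The nearest was TNFRSF10D, a decoy receptor for the death ligand TRAIL, at a distance of 0.250, with means of 7.46 and 53.9 CPM. LYPD1 followed at 0.428 (3.93 and 31.5 CPM), then PNP, the purine nucleoside phosphorylase, at 0.481 (12.9 and 81.8 CPM). DUSP4, a nuclear phosphatase of ERK, was at 0.662 (10.3 and 54.3 CPM), and SLC30A1, a zinc exporter, at 0.731 (27.0 and 120.9 CPM). With 4 libraries against 4, likeness over these samples is mostly a like difference between the groups.

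The other genes of FGF signalling were taken from 9 lists with 126 symbols beside the members, of which 116 were in the table. Of these, 52 rose and 21 fell, and 43 did not pass; without high glucose replicate 1, 52 rose and 22 fell. The share called was 62.9%, beside 46.8% of all genes, and the median log2 difference was 0.14. In a fit of genes with a mean of at least 1 CPM, 71 of 96 were called (74.0%), beside 67.0% of 14372 genes. The shares of all genes set beside each list below also count genes under that level. The lists were drawn up with earlier results of these data known, and none was tested as a set.

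Feedback inhibitors and ETS targets, the readouts of ERK activity, held the most calls in 1 direction. Of 21 genes, 17 rose and 0 fell, that is 81.0% called higher beside 22.0% of all genes. The median log2 difference was 0.77, and without high glucose replicate 1 there were 15 that rose. All 21 had a mean of at least 1 CPM, and in the fit of genes at that level 17 rose and 1 fell. In that fit 67.0% of all genes were called in either direction. DUSP4 was at 10.6, 10.4, 8.24 and 12.1 CPM in low and 55.1, 55.4, 52.0 and 54.8 CPM in high glucose, a change of 2.30 (SE 0.10, adjusted p = 4.5e-06). ETV5, an ETS factor that is a standard marker of FGF signalling, rose from 14.6 ± 0.63 to 43.6 ± 0.92 CPM, by 1.52 (adjusted p = 6.21e-07). SPRY4, a sprouty inhibitor, rose from 7.76 ± 0.64 to 30.8 ± 2.34 CPM, by 1.86 (adjusted p = 3.25e-06). CCND1, the G1 cyclin D1, rose from 56.4 ± 1.05 to 83.1 ± 2.84 CPM (adjusted p = 8.67e-06). In all of these the groups were far apart.

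Further genes of this list are named with their values seen. DUSP6, the cytoplasmic phosphatase of ERK, rose from 3.92 ± 0.44 to 13.8 ± 1.15 CPM, ETV4 from 4.36 ± 0.85 to 20.0 ± 3.25 CPM, and FOS from 3.39 ± 0.49 to 13.1 ± 1.01 CPM. The 4 that did not pass were SPRY3 (log2 difference -0.07), ETS1 (-0.08), the immediate early gene EGR1 (-0.20) and IL17RD, a membrane inhibitor of FGF signalling (-0.37, adjusted p = 0.0934). IL17RD was lower without overlap, at 7.04 to 7.65 CPM in low and 3.88 to 6.93 CPM in high glucose. It was called lower under 3 of the 14 alternative settings, among them the fit without high glucose replicate 4. SPRY1 and MYC lost their calls without high glucose replicate 1 (adjusted p = 0.0678 and 0.0616) and under 6 other of the 14 alternative settings each.

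**Figure D4:**
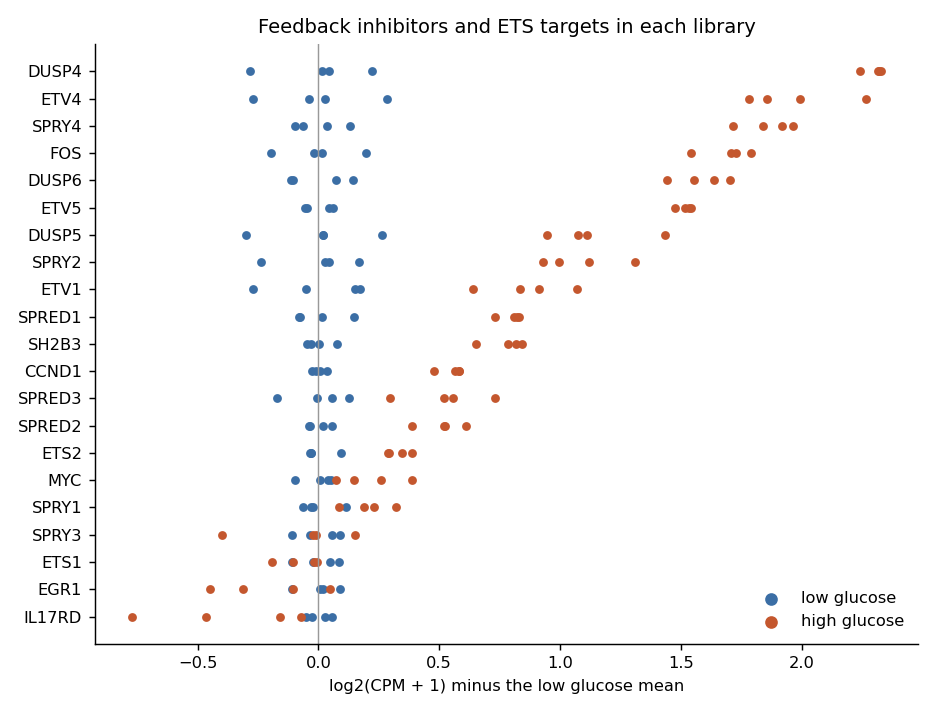
log2(CPM + 1) of the 21 feedback inhibitors and ETS targets in each library, minus the low glucose mean of the gene, ordered by the difference between the groups (low glucose blue, high glucose orange). The high glucose libraries of DUSP4, ETV4, SPRY4, FOS, DUSP6 and ETV5 lie more than 1 log2 unit from the low glucose mean, and those of IL17RD, EGR1, ETS1 and SPRY3 do not lie above the low glucose libraries as a group.

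Adaptors and kinases of the ERK cascade were higher more often than lower. Of 27 genes besides FRS2, 14 rose, 3 fell and 10 did not pass, and without high glucose replicate 1 there were 16 that rose and 4 that fell. The share called higher was 51.9%, beside 22.0% of all genes. All 27 had a mean of at least 1 CPM. In either direction 63.0% were called, beside 67.0% of genes in the fit at that level. CRKL, an adaptor of the CRK family, rose from 74.6 ± 3.08 to 139.3 ± 2.57 CPM (log2 0.89, adjusted p = 2.1e-06) and its relative CRK from 91.4 ± 2.03 to 143.1 ± 7.55 CPM (0.64, adjusted p = 1.93e-05). RPS6KA1, an ERK-activated S6 kinase, rose from 26.1 ± 1.46 to 61.2 ± 4.63 CPM (1.20, adjusted p = 9.14e-06). The 3 that fell were MAPK3, the kinase ERK1, from 26.0 to 18.0 CPM, PLCG1, a phospholipase bound by the activated receptor, from 272.3 to 237.3 CPM, and FRS3, the relative of FRS2, from 4.04 to 2.66 CPM, named after their values were seen.

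Heparan sulfate core proteins, which carry the chains that hold FGF2 at the cell surface, were lower more often than higher. Of 13 genes, 8 fell, 2 rose and 3 did not pass. That is 61.5% called lower, beside 24.8% of all genes, with a median log2 difference of -0.32. Without high glucose replicate 1 there were 7 that fell and 2 that rose. Of the 13, 11 had a mean of at least 1 CPM. In either direction 76.9% were called, beside 67.0% of genes in the fit at that level. The glypican GPC6 fell from 25.7 ± 0.22 to 12.6 ± 1.20 CPM (-0.98, adjusted p = 2.39e-05), the basement membrane collagen COL18A1 from 248.9 ± 17.4 to 127.3 ± 12.7 CPM (-0.97, adjusted p = 9.19e-05) and perlecan, HSPG2, from 30.3 ± 1.93 to 14.6 ± 2.35 CPM (-1.01, adjusted p = 0.000239). The syndecan SDC2 fell from 1161 ± 15.8 to 832.7 ± 55.4 CPM (-0.48, adjusted p = 0.000214). The 2 that rose were the syndecans SDC1, from 51.8 to 67.8 CPM, and SDC4, from 54.2 to 74.5 CPM, both named after their values were seen.

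Enzymes that build and edit heparan sulfate moved in both directions, with 6 of 17 that rose (35.3%, beside 22.0% of all genes) and 6 that fell (35.3%, beside 24.8%). Of the 17, 14 had a mean of at least 1 CPM. In either direction 70.6% were called, beside 67.0% of genes in the fit at that level. SULF2, an extracellular sulfatase that removes 6-O-sulfate from the chains, was at 455.3, 465.9, 454.8 and 463.8 CPM in low and 200.1, 213.5, 241.7 and 223.7 CPM in high glucose, without overlap, a change of -1.07 (SE 0.06, adjusted p = 8.75e-06). HS6ST1, which adds 6-O-sulfate, fell from 93.6 ± 0.94 to 66.3 ± 4.46 CPM (-0.49, adjusted p = 0.000145). HS3ST3B1, a 3-O-sulfotransferase, rose from 31.9 ± 1.56 to 58.9 ± 4.34 CPM (0.87, adjusted p = 2.81e-05). EXTL3, a glycosyltransferase that starts the chain, fell from 53.8 ± 2.32 to 28.0 ± 2.29 CPM (-0.92, adjusted p = 3.02e-05).

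Among 13 genes listed mostly for export, carriers and nuclear partners of FGF2 or FGF1, 6 rose, 2 fell and 5 did not pass. That is 46.2% called higher and 15.4% lower, beside 22.0% and 24.8% of all genes. With 1 library left out 3 to 5 rose, and in the fit of genes with a mean of at least 1 CPM 5 of 10 rose and 1 fell. FGFBP1, named with its values seen, was among the 6 at no more than 0.0889 CPM, below 3 reads. It lost its call without high glucose replicate 1 (adjusted p = 0.0729). FGFR1OP2, a gene listed because it was found fused to FGFR1, rose from 10.6 ± 1.43 to 25.8 ± 1.51 CPM (1.22, adjusted p = 5e-05), and LRRC59, a membrane protein for the nuclear import of FGF1, from 192.3 ± 4.23 to 238.3 ± 8.0 CPM (0.31, adjusted p = 0.000138). FIBP, which binds FGF1 inside the cell, fell from 60.4 ± 5.34 to 37.7 ± 3.88 CPM (-0.67, adjusted p = 0.000677). KPNA2, an importin, rose from 563.4 ± 21.2 to 625.8 ± 25.0 CPM (0.15, adjusted p = 0.0175), a call that was lost without low glucose replicate 2 and without low glucose replicate 3.

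**Figure D5:**
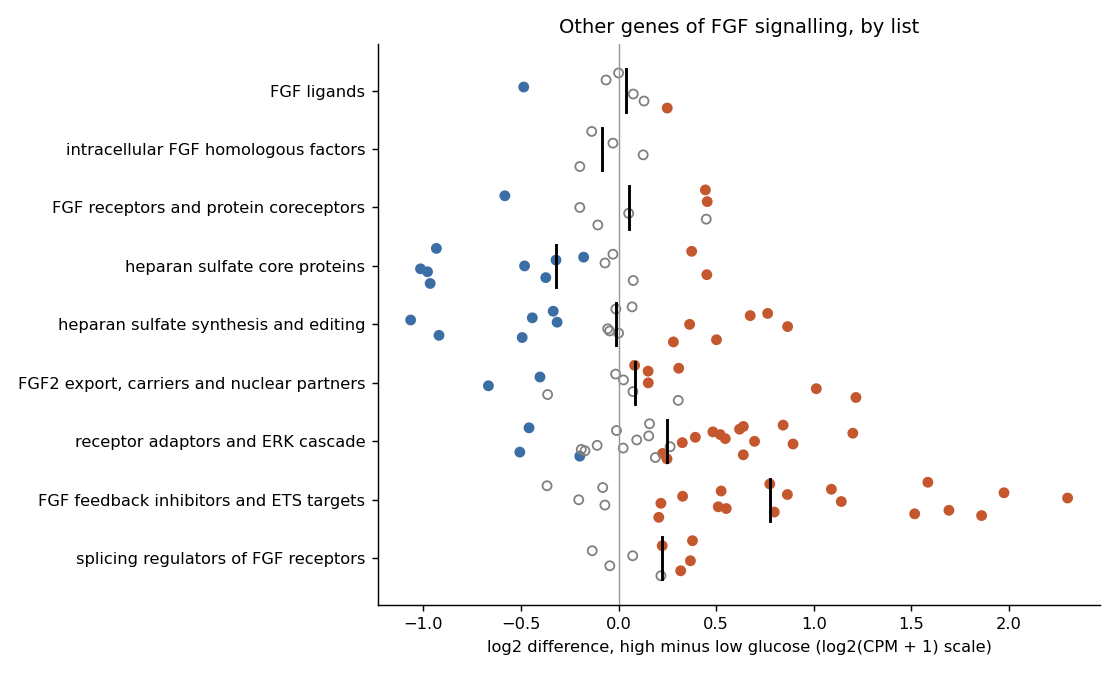
Log2 difference (high minus low glucose, log2(CPM + 1) scale) of the 116 genes of FGF signalling outside the set, by list, with genes that rose in orange, genes that fell in blue, genes that did not pass as open circles and the list median as a black bar. The feedback inhibitors and ETS targets have the highest median, 0.77, and heparan sulfate core proteins the lowest, -0.32.

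The other FGF ligands in the table were low, at no more than 3.67 CPM in any library. Of 6 ligands besides the members, FGF10 fell from 1.0 ± 0.15 to 0.433 ± 0.126 CPM (-0.49, adjusted p = 0.00196). FGF18 rose from 2.53 ± 0.25 to 3.19 ± 0.33 CPM (0.25, adjusted p = 0.0429), a call that 10 of 14 alternative settings lost, among them the fit without high glucose replicate 1 (adjusted p = 0.0780). FGF9, FGF19, FGF21 and FGF22 did not pass and reached at most 0.706 CPM. None of the 4 intracellular FGF homologous factors (FGF11, FGF12, FGF13 and FGF14) passed. Of 7 coreceptors, the cadherin CDH2, which binds FGFR1, rose from 55.2 ± 2.29 to 75.5 ± 1.80 CPM (0.44, adjusted p = 4.63e-05) and FLRT2 from 22.5 ± 1.59 to 31.2 ± 2.89 CPM (0.45, adjusted p = 0.00264), whereas FLRT1 fell from 2.49 ± 0.52 to 1.33 ± 0.35 CPM (-0.58, adjusted p = 0.0131). KL, the klotho coreceptor of FGF23, was at 1.34 ± 0.36 and 2.28 ± 0.94 CPM (adjusted p = 0.181), and passed without high glucose replicate 1 (adjusted p = 0.0121). The shares called were 33.3% of the 6 ligands, 0% of the 4 homologous factors and 42.9% of the 7 coreceptors, beside 46.8% of all genes.

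Of 8 splicing regulators that act on FGF receptor exons, 4 rose and 0 fell. The share called higher was 50%, beside 22.0% of all genes, and 24.8% of all genes were called lower. In either direction 50% were called, beside 46.8% of all genes. The 4 that rose were HNRNPF, from 131.8 ± 2.01 to 170.5 ± 7.40 CPM (0.37, adjusted p = 0.000101), PTBP1, from 197.6 ± 4.63 to 246.9 ± 13.5 CPM (0.32, adjusted p = 0.000659), HNRNPH1 (0.22, adjusted p = 0.00327) and MBNL1 (0.38, adjusted p = 0.00849). ESRP1 and ESRP2, the epithelial factors that select the exon of the FGFR2 form found in epithelia, were at no more than 1.07 CPM in any library, and the table does not separate receptor isoforms.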

How the data were processed

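The authors deposited 1 table of CPM for 21077 gene lines and 8 libraries, to which the authors had applied TMM scaling factors. The processing notes name hg38. Libraries followed standard Illumina protocols from RNeasy-purified RNA on a HiSeq. The study's methods, written for tumors, name hg19, so that the build, the counting tool, the use of strand and the annotation of this table are not established, and positions describe the RefSeq annotation. Only 72.0% to 73.3% of the low values were whole multiples of the step of 1 read, so read counts were not used in a test. Precision is set by 9721648 to 12482546 estimated reads per library.

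Groups and replicate numbers came from the labels. The 18 pseudoautosomal Y copies were left out, and 21059 genes were tested, including 856 at 0 in all libraries. Values were taken as log2(CPM + 1) and compared with limma 3.58.1 in R 4.3.3 (lmFit, eBayes with trend, 2-sided, no covariate), with Benjamini-Hochberg adjustment over all genes and a threshold of 0.05. Fold changes on this scale understate those of low genes. Levels between genes were compared as CPM per kb of the canonical transcript in GENCODE 44 mapped to GRCh37, used for lengths, exon overlap and distances only. Start regions came from RefSeq (GRCh38.p14), which matched 9 of the 10 genes. Alternatives were a pseudocount of 0.1, a minimum mean of 1 CPM, median-of-ratios scaling, equal column totals, removal of a length trend (spline with 5 degrees of freedom), a replicate block and each library left out.

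The members and the 12 gene lists were chosen with earlier results of these data known. Genes named are all members, at most 4 others per list with the smallest adjusted p, the list gene with the highest level per length, the 5 profiles nearest to FGF2, and genes starting within 1 Mb of it. Any further gene is marked as named with its values seen. Results for 4 genes that qualified for naming are left out.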

Additional observations from a re-analysis of the deposited data

Results flagged for a closer look

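A library lay far from the other 3 of its group in 15 of 131 groups of 4 examined, measured as its gap to the nearest library divided by the range of the group, against Dixon's 95% critical value. Chance flags about 1 in 20 groups, or 6.55 of 131. Members among them were FGFR1 in high glucose (0.8346, replicate 1 at 145.3 CPM, the others at 141.5 to 142.1) and FRS2 in high glucose (0.9196, replicate 1 at 48.4 CPM, the others at 56.3 to 57.0). High glucose replicate 1 was also the separate library for SDC2 (0.9348), FGFR1OP2 (0.9362), KPNA2 (0.9026) and CETN4P (0.8843). In high glucose, replicate 4 stood apart for CDH2 (0.9435) and replicate 3 for DUSP4 (0.8321). In low glucose the separate library was replicate 2 for FLRT1 (0.9675), CRKL (0.9084) and MBNL1 (0.8314), replicate 3 for LYPD1 (0.8827) and SLC30A1 (0.8397), replicate 4 for LRRC59 (0.8871), and replicate 1 for FGF13 (1), where it held the only read of the gene.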

How the results depend on the processing

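The log2 difference of FGF2 was 2.59 to 2.65 over 14 alternative settings (2.59 to 2.64 with 1 library left out), and no member changed sign. With a pseudocount of 0.1 the differences of FGF1, FGF5 and FGFR2 moved to -1.15, 0.97 and -0.93. The count of genes called, 9849, was 8899 to 10156 with 1 library left out and 8921 with the replicate block, and the count for FGF signalling, 73 of 116, was 64 to 74 and 63. The sources used here do not say whether libraries of the same number were paired by origin. Correlations of deviations between libraries of the same number were 0.07, -0.03, 0.01 and -0.04, and between those of different numbers -0.14 to 0.07. Low correlations cannot exclude a pairing. With the block FGF18, FLRT1 and SPRY1 lost their calls and KIAA1109 gained one. With the length of all exons in place of the representative transcript, FGF2 had rank 3 by level per kb in low glucose in place of 4 and stayed at 1 in high glucose, while NUDT6 had rank 7 in both groups and FGFRL1 rank 4 and 2. With 1 library left out the rank of FGF2 was 4 in low and 1 in high glucose. Depth limits FGF1 and FGF5, at 0 to 15 reads, and the levels of FGF2 and NUDT6 rest on divided reads.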

Other observations

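NUDT6 belongs to the NUDIX hydrolases, which cleave nucleoside diphosphates linked to other groups. Of the 20 other NUDIX genes in the table, 6 rose, 7 fell and 7 did not pass, with a median log2 difference of -0.05. The share called was 65.0%, with 30% higher and 35.0% lower, beside 46.8%, 22.0% and 24.8% of all genes. Of the 20 genes, 19 had a mean of at least 1 CPM. In the fit of genes at that level 67.0% were called, so the NUDIX share was near that of genes of like level. NUDT12, a peroxisomal NADH pyrophosphatase named after its values were seen, fell from 13.5 ± 1.04 to 7.86 ± 0.988 CPM (-0.71, adjusted p = 0.000661). NUDT9, an ADP-ribose pyrophosphatase, rose from 22.6 ± 1.16 to 40.9 ± 2.64 CPM (log2 0.83, limma adjusted p = 2.64e-05), and NUDT5, which acts on ADP-sugars, from 93.4 ± 2.42 to 125.2 ± 6.57 CPM (0.42, adjusted p = 0.000142). NUDT4, a diphosphoinositol polyphosphate hydrolase, rose from 92.9 ± 2.62 to 133.0 ± 2.29 CPM (0.51, adjusted p = 6.33e-06), and NUDT21, a subunit of the 3' end cleavage factor, from 125.2 ± 2.62 to 153.2 ± 4.17 CPM (0.29, adjusted p = 9.27e-05).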
